A study of Rattus norvegicus with 40 samples.

Results

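Liver sinusoidal endothelial cells and the endothelium of capillaries and larger vessels were followed in a rat model of liver carcinogenesis through 10 genes chosen by symbol. The sinusoidal genes were Stab1, Stab2, Lyve1, Clec4g, Clec1b and Oit3, and the vascular genes were Plvap, Cd34, Vwf and Pecam1. Of the 17337 genes of the count tables, 8 were these genes, and Stab1 and Clec4g were not analysed here. Stab2, Lyve1, Oit3 and the 4 vascular genes were called higher in tissue of rats given diethylnitrosamine (DEN) than in the liver of untreated rats in all 5 such comparisons, and Clec1b in 1 of them. Of all genes tested, 14.3% to 23.9% were called higher in these comparisons. In non-tumoral liver at 20 weeks 8 of the 8 genes were called, but 3 without rat H16. Relative to the endothelial genes Cdh5 and Tie1, which rose too, 3 of the 8 genes had a lower mean than in untreated liver at 8 weeks, 6 at 14 weeks and 5 at 20 weeks in non-tumoral liver, and the others a higher one. Relative to a longer list of pan-endothelial genes, each of the 8 had a higher mean at all 3 times. The direction thus depended on the reference. Over the 5 comparisons the sinusoidal genes Stab2, Lyve1 and Oit3 were 1.53-fold to 3.02-fold higher, and Cd34 was 1.78-fold to 4.02-fold higher. Untreated libraries held 10 to 16 read pairs of Cd34 at 8 weeks and 3 to 9 at 14 and 20 weeks. At the 2 later times Cd34 passed the filter on low counts through its level in DEN tissue. None of the 8 genes was called lower in DEN tissue than in untreated liver, where 3.82% to 15.2% of all genes were. None was called different by edgeR between a nodule and the non-tumoral liver around it, where 0% of all genes tested were called. With the rat as a block, which pairs the tissues of an animal, 0 genes were called at 14 weeks and 1693 at 20 weeks, again without any of the 8.

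Sinusoidal endothelial cells line the small vessels of the liver lobule. They are fenestrated, lack an organised basement membrane and clear macromolecules from blood through scavenger and lectin receptors. In chronic liver injury they can lose these features and take on those of a continuous capillary, a change called capillarization, in which CD34, von Willebrand factor and the diaphragm protein PLVAP are used as vascular markers.

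The animals were male Fischer 344 rats, 7 weeks old at the start, and those in the DEN groups received 50 mg/kg of DEN, a hepatic carcinogen, by weekly injection into the peritoneum. DEN rats were killed after 8 weeks of injections (DEN08), after 14 weeks (DEN14), or at 20 weeks (DEN20), when 14 weeks of injections had been followed by 6 weeks without. Rats of the same age given no DEN formed the groups NOD08, NOD14 and NOD20. In DEN rats non-tumoral tissue (NT) was sampled at each time and tumoral nodules (T) at 14 and 20 weeks, 2 nodules per rat. Each group held 4 rats, so that the 40 libraries came from 24 rats. The NT liver and the nodules of DEN14 came from the same 4 rats, as did those of DEN20, and the nodules of DEN14 and DEN20 were compared with the same NOD rats as the NT liver of that time. All libraries were made from bulk tissue, so a change in the number of endothelial cells and a change in RNA per endothelial cell cannot be told apart, whether a level is higher or lower.

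Library totals ran from 20528515 to 160622633 read pairs counted in genes, with a median of 30477421, and the largest library, the NT liver of rat H26 of DEN20, held 4.08 times the next. Levels are given as CPM, counts scaled to a fixed library total, and at the median depth 1 CPM stood for 30.4 read pairs. The hepatocyte gene Alb took 10.4% to 19.0% of counted pairs, and no 2 libraries held identical counts. The scaling used trimmed means (TMM) over the 40 libraries. The level of a rat's nodules is the mean of its 2 nodules, and a group mean is given ± SD over 4 rats. A gene was called where edgeR's quasi-likelihood test gave a Benjamini-Hochberg adjusted p of at most 0.05 over all genes tested and the log2 fold change was 0.5 or more in either direction. For these tests the counts of a rat's 2 nodules were summed. The labels name a different rat for each library of a group, other than the nodule pairs, so the tests measure the spread between rats.

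RefSeq promoter windows were at hand for 8 of the 10 genes, without Vwf and Pecam1. The windows of 4 genes are shown because Stab2 and Oit3 had the most similar pattern of levels among the 8 genes, while Plvap and Cd34 are the vascular genes used most often as signs of capillarization. Each is the 250 bases before the annotated start site on build GRCr8, 5′ to 3′ along the gene. Capitals mark the letters of 3 motifs on either strand: AGGAAG, a core bound by ETS factors, AGATAA or TGATAA for GATA factors, and AACAAT or AACAAA for SOX factors.
Stab2 (chr7:23320563-23320812, minus strand): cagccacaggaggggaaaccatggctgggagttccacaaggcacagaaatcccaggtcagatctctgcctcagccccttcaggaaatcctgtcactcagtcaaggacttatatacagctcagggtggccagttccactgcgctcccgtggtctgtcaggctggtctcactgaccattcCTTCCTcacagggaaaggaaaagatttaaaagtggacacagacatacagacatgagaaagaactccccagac
Oit3 (chr20:27953684-27953933, minus strand): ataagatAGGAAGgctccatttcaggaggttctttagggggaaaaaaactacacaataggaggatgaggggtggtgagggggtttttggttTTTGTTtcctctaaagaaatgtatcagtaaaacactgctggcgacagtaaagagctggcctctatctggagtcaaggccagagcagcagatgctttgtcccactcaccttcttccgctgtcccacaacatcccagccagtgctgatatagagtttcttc
Plvap (chr16:18231280-18231529, minus strand): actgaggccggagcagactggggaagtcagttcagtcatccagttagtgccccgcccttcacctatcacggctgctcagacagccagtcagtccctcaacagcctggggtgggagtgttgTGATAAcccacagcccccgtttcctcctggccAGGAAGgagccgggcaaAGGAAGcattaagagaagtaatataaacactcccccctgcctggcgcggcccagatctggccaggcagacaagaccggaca
Cd34 (chr13:109008536-109008785, plus strand): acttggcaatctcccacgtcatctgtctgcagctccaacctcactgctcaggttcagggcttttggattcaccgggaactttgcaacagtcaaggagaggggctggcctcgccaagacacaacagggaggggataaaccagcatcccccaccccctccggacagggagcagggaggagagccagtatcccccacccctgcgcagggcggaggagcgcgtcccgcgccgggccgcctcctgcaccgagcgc
The ETS letters were present once in the windows of Stab2 and Oit3 and at 2 places in that of Plvap, and no searched letters were present in that of Cd34. Of the 8 windows, 6 held the ETS letters, against 29.5% of all 33469 rat promoter windows of this length. The GATA letters were in 2 of the 8 windows and in 16.9% of all, and the SOX letters in 3 of the 8 and in 25.5% of all. These matches describe the letters only.

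Stab2 encodes stabilin-2, a scavenger receptor of sinusoidal endothelium that clears hyaluronan. Its level in the livers of untreated rats was 13.4, 9.75, 12.2 and 18.1 CPM in NOD08, 9.55, 10.2, 15.1 and 18.5 CPM in NOD14, and 17.9, 10.9, 5.04 and 6.94 CPM in NOD20. In NT liver it was 24.0, 21.3, 24.9 and 24.8 CPM in DEN08, 34.7, 35.0, 33.6 and 46.0 CPM in DEN14, and 24.9, 26.2, 35.9 and 31.3 CPM in DEN20. The 8 nodule libraries ran from 18.9 to 45.9 CPM with a median of 34.3 CPM at 14 weeks, and from 12.9 to 50.0 CPM with a median of 33.1 CPM at 20 weeks. Every DEN rat lay above every untreated rat of its time, in NT liver as in the mean of its nodules. In NT liver Stab2 rose on the log2 scale by 0.84 ± 0.16 (± SE here and for all fold changes) at 8 weeks (edgeR quasi-likelihood test, adjusted p = 0.00265), 1.5 ± 0.21 at 14 weeks (adjusted p = 0.000453) and 1.56 ± 0.35 at 20 weeks (adjusted p = 0.0147). In nodules the log2 fold change was 1.30 ± 0.25 at 14 weeks (edgeR, adjusted p = 0.00256) and 1.59 ± 0.36 at 20 weeks (adjusted p = 0.00458). In the order of the 8 group means, the NOD groups came first, then DEN08 NT, then the 4 later DEN groups. The ranges of rats did not overlap between NOD08 and DEN08 NT. DEN08 NT and the next group up, DEN20 NT, all but touched, at 24.935 and 24.941 CPM. The other neighbours in that order overlapped. The change at 14 weeks exceeded that at 8 weeks by 0.66 ± 0.28 on the log2 scale, which did not pass the test (edgeR interaction, adjusted p = 0.149).

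Lyve1, a hyaluronan receptor of sinusoidal and lymphatic endothelium, had the highest level of the 8 genes in every group by CPM, a scale that is not per length and so does not rank transcripts. It stood at 32.6, 23.3, 30.5 and 41.4 CPM in NOD08, 27.7, 27.0, 30.5 and 37.6 CPM in NOD14, and 47.0, 32.4, 16.7 and 22.4 CPM in NOD20. NT liver held 61.4, 57.4, 60.3 and 68.4 CPM in DEN08, 74.0, 56.7, 58.6 and 69.4 CPM in DEN14, and 59.5, 43.5, 65.1 and 56.3 CPM in DEN20. The groups did not overlap at 8 and 14 weeks, whereas at 20 weeks the lowest DEN rat, H25, lay below the highest untreated rat, H13. Lyve1 rose by a log2 fold change of 0.96 ± 0.15 at 8 weeks (edgeR, adjusted p = 0.000854) and 1.09 ± 0.12 at 14 weeks (adjusted p = 5.05e-05). At 20 weeks the value was 0.94 ± 0.29 (edgeR, adjusted p = 0.0474), and it was not called without any 1 of the rats F03, H14, H15, H16, H26 and H28, where the adjusted p ran up to 0.123, with RLE scaling (adjusted p = 0.052) or without the filter on low counts (adjusted p = 0.0767). Nodules ran from 55.2 to 104 CPM (median 64.4 CPM) at 14 weeks and from 53.7 to 73.6 CPM (median 59.2 CPM) at 20 weeks. All nodules lay above all untreated livers of their time, with log2 fold changes of 1.20 ± 0.18 (edgeR, adjusted p = 0.000659) and 1.00 ± 0.26 (adjusted p = 0.00878).

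Oit3, a gene of a secreted zona pellucida domain protein described in hepatocytes and in sinusoidal endothelium, followed Stab2 closely. Its group mean in untreated liver was 10.7 ± 2.01 CPM in NOD08, 11.4 ± 2.92 CPM in NOD14 and 8.34 ± 3.72 CPM in NOD20. In NT liver it was 16.3 ± 1.00 CPM in DEN08, 21.9 ± 2.95 CPM in DEN14 and 20.4 ± 3.88 CPM in DEN20. No DEN rat overlapped the untreated rats of its time in either tissue. The log2 fold change in NT liver was 0.61 ± 0.13 at 8 weeks (edgeR, adjusted p = 0.00404), 0.97 ± 0.17 at 14 weeks (adjusted p = 0.000975) and 1.31 ± 0.31 at 20 weeks (adjusted p = 0.0167). The call at 20 weeks was lost without rat H16, at 1.20 and an adjusted p of 0.0571 (edgeR). In nodules Oit3 rose by 1.00 ± 0.17 at 14 weeks (edgeR, adjusted p = 0.00137) and 1.36 ± 0.30 at 20 weeks (adjusted p = 0.0038).

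Clec1b, which encodes the podoplanin receptor CLEC-2 of platelets and is also found in sinusoidal endothelium, changed least of the sinusoidal genes at 14 weeks. It was at 1.32 to 3.05 CPM in NOD08, 1.65 to 2.50 CPM in NOD14 and 1.03 to 3.04 CPM in NOD20, or 21 to 71 read pairs per library. NT liver held 2.74 to 4.40 CPM in DEN08, 1.91 to 2.89 CPM in DEN14 and 2.89 to 3.67 CPM in DEN20, and DEN and untreated rats overlapped at each time. The log2 fold change was 0.62 ± 0.25 at 8 weeks (edgeR, adjusted p = 0.0769), 0.32 ± 0.18 at 14 weeks (adjusted p = 0.169) and 0.85 ± 0.27 at 20 weeks (adjusted p = 0.0387). The call at 20 weeks was lost without any 1 of F03, H14, H15, H16, H26 and H28, with an adjusted p of at most 0.12, and at 8 weeks the gene was called without H05 (0.81, edgeR adjusted p = 0.038). In nodules the values were 0.51 ± 0.26 at 14 weeks (edgeR, adjusted p = 0.125) and 0.61 ± 0.28 at 20 weeks (adjusted p = 0.0877), the latter called without H13 (0.97, adjusted p = 0.00635), with all 8 groups in the fit (0.63, adjusted p = 0.04) and with each nodule as its own value (0.65, adjusted p = 0.0443). The 95% interval of the 14 week NT value, from -0.09 to 0.72, holds 0 and the value of 8 weeks but not that of 20 weeks, and the difference between times was not called either (edgeR interaction of 20 against 14 weeks 0.53 ± 0.34, adjusted p = 0.441).

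The vascular genes rose in the same tissue. Plvap encodes the protein of the diaphragms that close endothelial fenestrae and caveolae. Its level was 15.3, 13.8, 10.2 and 12.3 CPM in NOD08, 7.33, 6.98, 8.34 and 8.51 CPM in NOD14, and 10.5, 8.56, 7.63 and 6.28 CPM in NOD20. In NT liver it was 24.8, 23.2, 22.8 and 19.9 CPM in DEN08, 19.6, 15.2, 15.1 and 16.1 CPM in DEN14, and 18.9, 9.34, 11.1 and 19.8 CPM in DEN20. All DEN rats lay above the untreated rats at 8 and 14 weeks, while at 20 weeks H25 lay below the highest untreated rat and the 4 DEN rats fell into a low and a high pair. The log2 fold change was 0.83 ± 0.12 at 8 weeks (edgeR, adjusted p = 0.000709), 1.10 ± 0.11 at 14 weeks (adjusted p = 2.19e-05) and 0.85 ± 0.27 at 20 weeks (adjusted p = 0.0435). The call at 20 weeks did not hold without any 1 of F03, H14, H15, H16 and H28, where the adjusted p reached 0.119, or without the filter (adjusted p = 0.0593). Nodules ran from 13.2 to 24.0 CPM at 14 weeks and from 11.7 to 23.5 CPM at 20 weeks, and Plvap was called in them at 1.17 ± 0.15 (edgeR, adjusted p = 0.000212) and 0.98 ± 0.19 (adjusted p = 0.00177).

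Cd34, a sialomucin of capillary endothelium that is also carried by haematopoietic and mesenchymal progenitors, had the lowest CPM of the 8 genes. It was at 0.516, 0.483, 0.640 and 0.418 CPM in NOD08, 0.182, 0.206, 0.331 and 0.171 CPM in NOD14, and 0.245, 0.166, 0.147 and 0.263 CPM in NOD20, which at 14 and 20 weeks was 3 to 9 read pairs per library. NT liver held 1.15, 0.911, 0.889 and 0.715 CPM in DEN08, 1.05, 0.900, 0.804 and 0.586 CPM in DEN14, and 0.735, 0.736, 0.765 and 0.897 CPM in DEN20. No DEN rat overlapped the untreated rats of its time, when the 2 nodules of a rat were averaged, although single nodules fell as low as 0.311 CPM in DEN14, below the highest NOD14 rat, and 0.306 CPM in DEN20. The log2 fold change was 0.83 ± 0.25 at 8 weeks (edgeR, adjusted p = 0.0249), 1.91 ± 0.31 at 14 weeks (adjusted p = 0.000483) and 1.91 ± 0.30 at 20 weeks (adjusted p = 0.00163). In nodules it was 1.93 ± 0.39 at 14 weeks (edgeR, adjusted p = 0.00295) and 2.01 ± 0.36 at 20 weeks (adjusted p = 0.00134). The call at 8 weeks was lost with DESeq2 (adjusted p = 0.051), without the F-numbered rats (0.66, adjusted p = 0.158), and without any 1 of F09, H05, H06 and H08, where the adjusted p was at most 0.074. The change at 14 weeks was larger than that at 8 weeks by 1.07 ± 0.39, which did not pass the test (edgeR interaction, adjusted p = 0.0924).

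Vwf encodes von Willebrand factor, which is stored in endothelium of larger vessels and in platelets. It stood at 13.8, 13.6, 12.4 and 16.2 CPM in NOD08, 6.42, 6.81, 8.63 and 8.95 CPM in NOD14, and 12.1, 11.4, 8.90 and 10.1 CPM in NOD20. NT liver held 26.2, 26.5, 22.6 and 23.5 CPM in DEN08, 21.4, 16.6, 17 and 17.3 CPM in DEN14, and 20.8, 17.4, 17.6 and 16.6 CPM in DEN20. The DEN and untreated rats were apart at each time, and among the 8 genes Vwf had the smallest SE at 8 and 20 weeks in NT liver. Its log2 fold change was 0.83 ± 0.10 at 8 weeks (edgeR, adjusted p = 0.000161), 1.25 ± 0.13 at 14 weeks (adjusted p = 2.88e-05) and 0.78 ± 0.11 at 20 weeks (adjusted p = 0.00111). In nodules it was 1.34 ± 0.17 at 14 weeks (edgeR, adjusted p = 0.000255) and 0.84 ± 0.15 at 20 weeks (adjusted p = 0.00112).

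Pecam1, the adhesion molecule CD31 of endothelial junctions that platelets and leucocytes also carry, changed by a like amount in each comparison. Its group mean was 14.7 ± 2.60 CPM in NOD08, 12.3 ± 1.85 CPM in NOD14 and 12.4 ± 2.96 CPM in NOD20, against 21.4 ± 2.23 CPM in DEN08 NT, 17.5 ± 1.80 CPM in DEN14 NT and 18.4 ± 2.0 CPM in DEN20 NT. The ranges of rats did not overlap in any of these pairs. Its log2 fold change in NT liver was 0.55 ± 0.13 at 8 weeks (edgeR, adjusted p = 0.00677), 0.53 ± 0.11 at 14 weeks (adjusted p = 0.0025) and 0.58 ± 0.15 at 20 weeks (adjusted p = 0.0184). In nodules it was 0.62 ± 0.17 at 14 weeks (edgeR, adjusted p = 0.0139) and 0.58 ± 0.16 at 20 weeks (adjusted p = 0.0125). All lie near the fold limit of the call, and leaving out 1 rat took the value below 0.5, and so ended the call, in each comparison: at 8 weeks without H06 (0.47) or H07 (0.50 after rounding), as also without the F-numbered rats (0.44, edgeR adjusted p = 0.053), at 14 weeks without F06 (0.44), H09 (0.45) or H10 (0.47), at 20 weeks without H15 (0.43) or H16 (0.49), in DEN14 nodules without F06 (0.48) and in DEN20 nodules without H15 (0.45). The call at 14 weeks was also lost with DESeq2 and with all 8 groups in the fit, each at 0.50 after rounding and below the limit before it, and that in DEN14 nodules with nodule 1 alone (0.50, edgeR adjusted p = 0.0576).

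**Figure D1:**
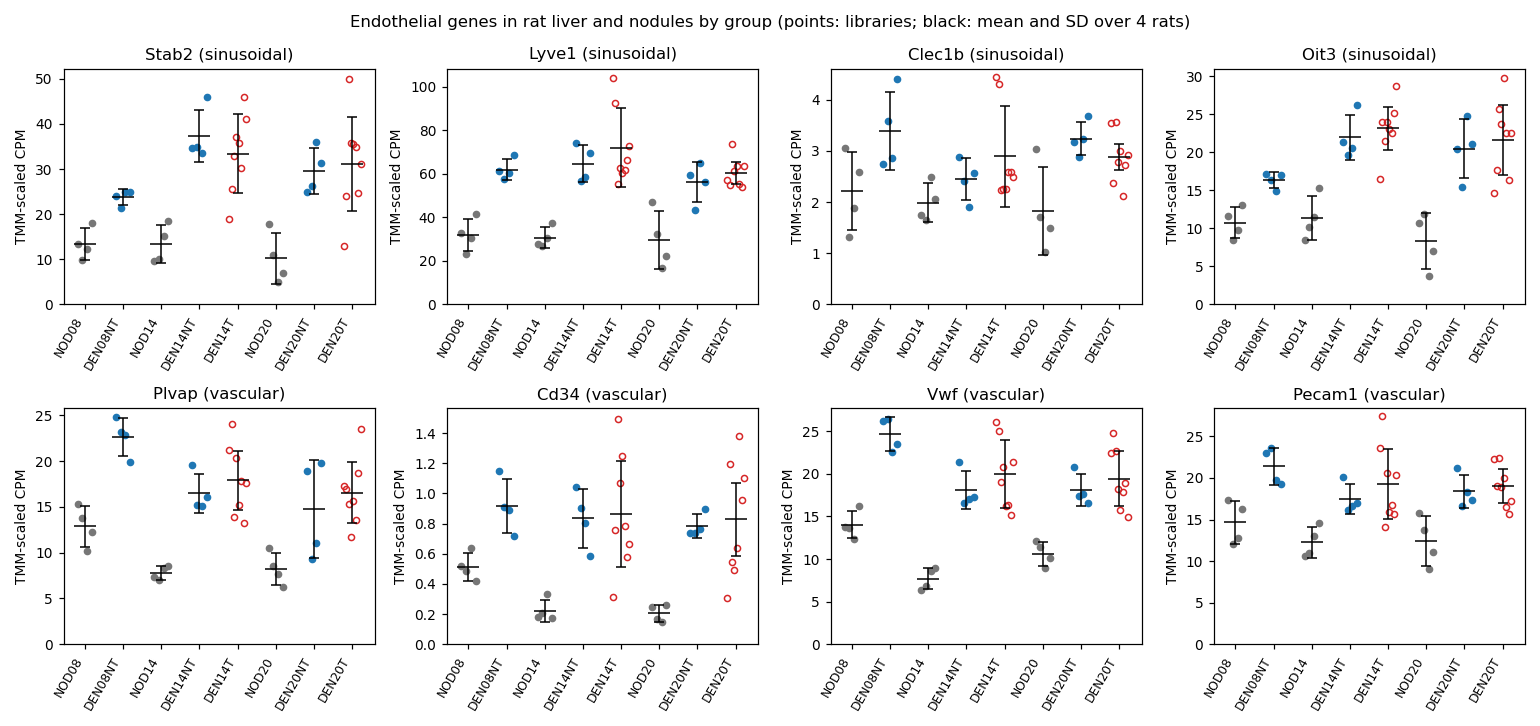
Levels of the 8 endothelial genes in the 8 groups, as TMM-scaled CPM on an axis that starts at 0, with a point for each library (open for nodules) and black bars for the mean ± SD over 4 rats. Stab2 in NT liver of DEN14 was at 33.6 to 46.0 CPM, above the 9.55 to 18.5 CPM of NOD14, whereas Clec1b overlapped between the 2 groups.

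Counted together, 7 of the 8 genes were called higher in NT liver at 8 weeks, where 21.7% of the 10812 genes tested were called in either direction and 16.5% were called higher. At 14 weeks 7 of 8 were called higher, against 32.6% of all genes in either direction and 22.8% higher, and at 20 weeks 8 of 8, against 18.1% and 14.3%. In nodules 7 of 8 were called higher at 14 weeks, against 39.1% and 23.9%, and 7 of 8 at 20 weeks, against 38.8% and 23.6%. All 8 genes passed the filter on low counts in these 5 comparisons. Cd34 did not pass it between NOD20 and NOD14, so at 14 and 20 weeks it passed through its level in the DEN group, and without Cd34 the counts there were 6 of 7 and 7 of 7 in NT liver and 6 of 7 at both times in nodules. Where a gene was not called it was Clec1b. None was called lower, a call made for 5.21%, 9.85% and 3.82% of all genes in NT liver at 8, 14 and 20 weeks and for 15.2% in nodules at either time. A stricter rule, with a log2 fold change of at least 1 and an adjusted p of at most 0.01, left 0, 5 and 1 of the 8 genes in NT liver, against 7.91%, 15.2% and 5.22% of all genes. In nodules it left 6 and 3, against 18.7% and 17.4%. Cd34 was among those left at 14 and 20 weeks in both tissues, and was the 1 gene left at 20 weeks in NT liver. The rats of the 2 groups did not overlap for 7 genes at 8 weeks, 7 at 14 weeks and 5 at 20 weeks in NT liver, against 34%, 50.6% and 28.3% of all genes tested. In nodules they did not overlap for 7 genes at both times, against 51.4% and 48.9%. Cd34 was among the genes without overlap at each time in both tissues. At 20 weeks in NT liver the count of 8 fell to 5 without the F-numbered rat F03 and to 3 without H16, and Stab2, Cd34 and Vwf were called without any 1 rat.

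**Figure D2:**
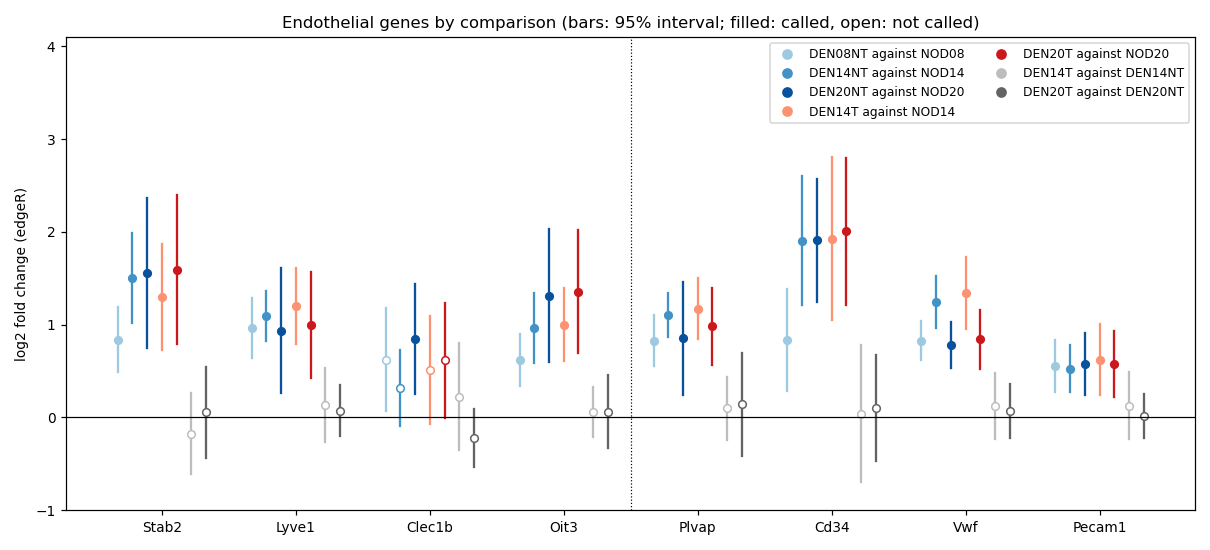
Log2 fold changes of the 8 genes by edgeR with their 95% intervals in 5 comparisons with untreated liver (blue for NT liver, red for nodules) and 2 comparisons of nodules with NT liver (grey), with filled points for called values. The comparisons with untreated liver of one time share their NOD rats, and the values against NT liver lie between -0.22 and 0.22, around 0.

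The median log2 fold change of the 4 sinusoidal genes in NT liver was 0.73 at 8 weeks, 1.03 at 14 weeks and 1.12 at 20 weeks, and that of the 4 vascular genes, Cd34 among them, was 0.83, 1.17 and 0.81. Over all genes tested the median lay at -0.01, 0.02 and 0.02. The balance between the groups was described by the mean log2 CPM of the sinusoidal genes minus that of the vascular genes in each library, in which the scaling of a library cancels. This difference was 0.67 ± 0.30 in NOD08 and 0.71 ± 0.24 in DEN08 NT, 1.36 ± 0.17 in NOD14, 1.21 ± 0.23 in DEN14 NT and 1.18 ± 0.23 in DEN14 nodules. At 20 weeks it was 0.90 ± 0.45 in NOD20, 1.20 ± 0.22 in DEN20 NT and 1.12 ± 0.33 in DEN20 nodules. The rats of the DEN groups overlapped the untreated rats of their time in all 5 pairs, which with 4 rats a group neither shows nor excludes a shift from sinusoidal to vascular genes. At 14 weeks the overlap came from H23, at 1.54 in NT liver and 1.66 and 1.32 in nodules. The NT livers of F06, H21 and H22 (1.03, 1.15 and 1.10) and each of their nodules (0.93 to 1.23) lay below the lowest NOD14 rat, at 1.27. At 8 and 20 weeks the means of the DEN groups lay above the untreated mean. The largest gap between means of this difference was between untreated rats of 8 and 14 weeks.

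**Figure D3:**
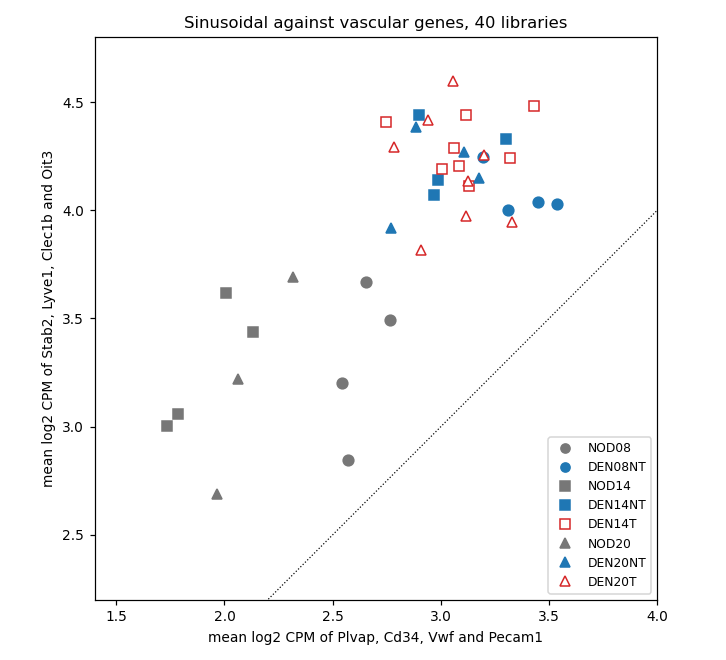
Mean log2 CPM of the 4 sinusoidal genes with a count row (vertical axis) against that of the 4 vascular genes (horizontal axis), with a dotted line of equality. Each of the 40 libraries has a point other than the lowest, rat H15 of NOD20. Its sinusoidal mean of 2.11, at a vascular mean of 1.75, lies below the range of the vertical axis. The DEN groups lie up and to the right of the untreated groups of their time, with group means of the sinusoidal genes of 4.08 to 4.30 in DEN groups and 2.93 to 3.30 in NOD groups.

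Between nodules and the NT liver of the same rats, 0 of the 8 genes were called at 14 weeks and 0 at 20 weeks by edgeR, where 0% of the 11466 and 11546 genes tested were called. Without rat H25 the count of all genes at 20 weeks rose from 0 to 445, with none of the 8 among them. At an unadjusted p under 0.05 there were 1348 and 2767 genes, none of them among the 8, and DESeq2 called 24 and 908 genes, again without any of the 8. With the rat as a block, which pairs the tissues of an animal, 0 and 1693 genes were called and the 8 genes were again not among them. The difference of Stab2 between nodules and NT liver was -0.18 on the log2 scale at 14 weeks with a 95% interval from -0.61 to 0.26, and 0.05 at 20 weeks with an interval from -0.44 to 0.54. For Plvap it was 0.10 (-0.24 to 0.44) at 14 weeks and 0.14 (-0.41 to 0.70) at 20 weeks. For Cd34 it was 0.04 (-0.70 to 0.78) and 0.11 (-0.47 to 0.68). The other genes lay between -0.22 and 0.22 at both times. The rats of the 2 tissues overlapped for all 8 genes, where 11.6% and 12.3% of all genes did not overlap.

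Single nodules varied more than these means. Stab2 was above the NT liver of its rat in 2 of 8 nodules at 14 weeks and in 2 of 8 at 20 weeks, the latter both from rat H25. Lyve1 was above in 6 of 8 and 3 of 8, Plvap in 6 of 8 and 5 of 8, and Vwf in 5 of 8 and 6 of 8. In nodule 1 of rat F06 Stab2 was at 18.9 CPM and Cd34 at 0.311 CPM, the lowest nodule values at 14 weeks, while its Lyve1 was the highest at 104 CPM. In nodule 1 of rat F03 Stab2 was at 12.9 CPM and Cd34 at 0.306 CPM, the lowest at 20 weeks, with Lyve1 at 57.1 CPM. These libraries also stood apart in other measures: that of F06 had the lowest total of all 40 (20528515) and the highest share of pairs outside exons (34.5%, next 28.2%), and that of F03 the highest share of pairs at several places (16.3%, next 13.2%). The part of these differences in the low values was not tested, and with nodule 2 alone 7 of the 8 genes were called higher than in untreated liver at both times. The 2 nodules of a rat differed most in Cd34, by 3.92-fold in F03 and 2.43-fold in F06, values that rest on few read pairs (8 in each lower nodule). Among the other 7 genes the largest gap was 1.86-fold, in Stab2 of F03, and the median gap at 14 weeks was 1.15-fold for Stab2 and 1.11-fold for Lyve1.

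**Figure D4:**
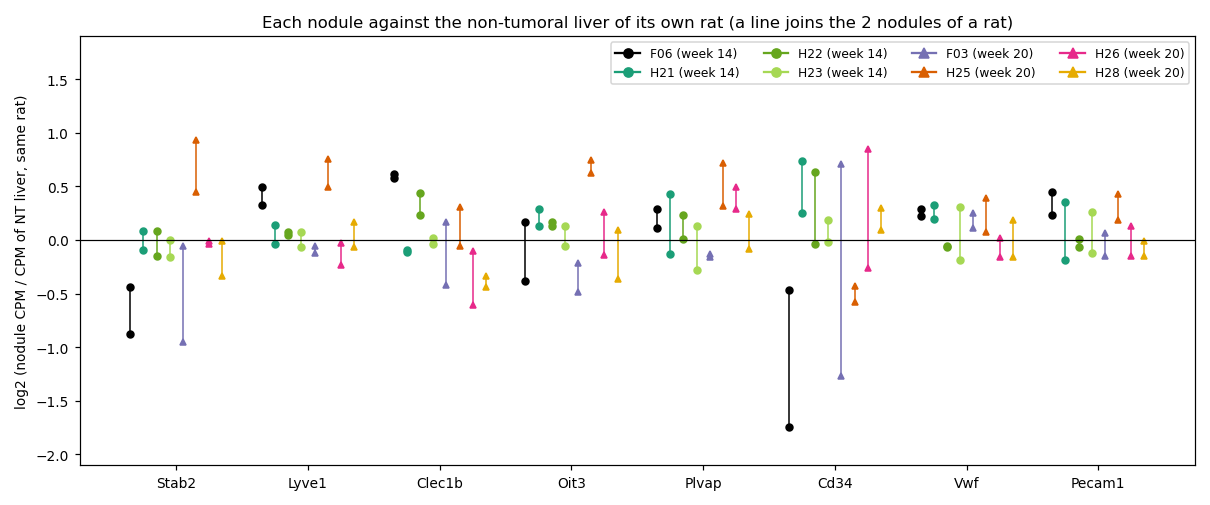
Each nodule's CPM relative to the NT liver of its own rat on a log2 scale, for the 8 genes and the 8 rats with nodules (circles 14 weeks, triangles 20 weeks), with a line joining the 2 nodules of a rat. Most points lie within 1 unit of 0, and the low values of Cd34 are nodule 1 of F06 and of F03.

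The untreated livers differed in age, and the 4 vascular genes had lower values at 14 than at 8 weeks, 3 of them at an unadjusted p under 0.05. Plvap was at -0.71 ± 0.13 (edgeR, adjusted p = 0.3), Cd34 -1.19 ± 0.34 (adjusted p = 0.412) and Vwf -0.85 ± 0.12 (adjusted p = 0.0771), with Pecam1 at -0.24 ± 0.14 (adjusted p = 0.585), and none passed the adjusted threshold. The call was made for 0 of the 8 genes and for 0% of the 10486 genes tested, with 1038 genes, and 3 of the 8, at an unadjusted p under 0.05. DESeq2 called 20 genes, Plvap and Vwf among them, and edgeR called the same 2 without rat H07. The sinusoidal genes Stab2 and Lyve1 were at 0.01 ± 0.26 and -0.05 ± 0.17 in this comparison. From 14 to 20 weeks in untreated liver 0 of 7 tested genes were called (0% of 10432 genes, 670 at an unadjusted p under 0.05, and 19 by DESeq2), and Cd34 did not pass the filter. Of the 7, Vwf alone had an unadjusted p under 0.05, at 0.46 ± 0.13 (edgeR, adjusted p = 0.493).

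Whether the DEN effect differed between times was tested as an interaction. For NT liver at 14 against 8 weeks 0 of the 8 genes were called, while 6.52% of 11219 genes were, and 3 of the 8 had an unadjusted p under 0.05, namely Stab2, Cd34 and Vwf. At 20 against 14 weeks 0 of the 8 were called in NT liver (0.703% of 11245 genes) and 0 in nodules (0.0862% of 11607 genes), and Vwf alone had an unadjusted p under 0.05 in each. The Vwf differences were 0.42 ± 0.16 (edgeR, adjusted p = 0.114), -0.47 ± 0.17 (adjusted p = 0.191) and -0.52 ± 0.24 (adjusted p = 1) in these 3 tests. Among all genes 2980, 1912 and 378 had an unadjusted p under 0.05, and DESeq2 called 979, 301 and 27 genes, none of them among the 8.

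Genes of all endothelium were set beside the members. Of 16 pan-endothelial genes 12 were tested, and 9 were called higher and 1 lower in NT liver at 8, at 14 and at 20 weeks, with 10 higher and 1 lower in DEN14 nodules and 8 higher and 1 lower in DEN20 nodules. Over all genes 16.5%, 22.8% and 14.3% were called higher in NT liver at these times, and 23.9% and 23.6% in nodules. The median log2 fold change of the tested pan-endothelial genes was 0.67, 0.93 and 0.81 in NT liver and 1.17 and 1.10 in nodules. In DEN20 nodules the junction and receptor genes Myct1 (1.64 ± 0.30, edgeR adjusted p = 0.00162), Rasip1 (1.35 ± 0.22, adjusted p = 0.000877) and Tie1 (1.33 ± 0.21, adjusted p = 0.000763) rose most. The gene called lower, in all 5 comparisons, was S1pr1, a receptor of sphingosine 1-phosphate, at -1.24 ± 0.18 in DEN20 nodules (edgeR, adjusted p = 0.000431) and 151 ± 22.3 CPM in NOD20 against 65.0 ± 15.1 CPM in DEN20 nodules.

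The members were then expressed as a percent of such reference counts in the same library. Against the whole pan-endothelial list, Stab2 was at 6.54% ± 1.71 in NOD14 and 20.1% ± 2.31 in DEN14 NT, and Vwf at 3.81% ± 0.53 and 9.77% ± 0.99, with no overlap for either gene. S1pr1 made up 71.6% of that sum in NOD14 and 38.6% in DEN14 NT. Against Cdh5 (VE-cadherin, the defining junction gene of endothelium) and Tie1 alone, whose own levels rose in all 5 comparisons, Stab2 was at 72.5% ± 10.9 in NOD14 and 77.5% ± 9.45 in DEN14 NT, and at 55.1% ± 11.2 in NOD20 and 79.9% ± 8.74 in DEN20 NT. These values overlapped between rats. The other sinusoidal genes had a lower mean on this scale at 14 weeks, with no overlap of rats: Lyve1 was at 170% ± 7.19 in NOD14 and 134% ± 11 in DEN14 NT, Oit3 at 62.3% ± 5.84 and 45.6% ± 4.46, and Clec1b at 11.1% ± 1.71 and 5.07% ± 0.64. Among the vascular genes Pecam1 was lower without overlap, at 68.1% ± 1.89 in NOD14 and 36.3% ± 2.90 in DEN14 NT and at 73.0% ± 9.06 in NOD20 and 50.1% ± 6.22 in DEN20 NT. Plvap had a mean of 43.6% ± 3.87 in NOD14 and 34.3% ± 3.35 in DEN14 NT, and Vwf of 42.7% ± 2.47 and 37.6% ± 3.71, both with overlapping rats. At 20 weeks the means of Plvap were 49.7% ± 14.0 in NOD20 and 40.3% ± 14.8 in DEN20 NT and those of Vwf 64.3% ± 15.0 and 49.4% ± 7.14, again with overlap. Cd34 was at 1.25% ± 0.41 in NOD14 and 1.74% ± 0.41 in DEN14 NT, and at 1.25% ± 0.44 in NOD20 and 2.14% ± 0.32 in DEN20 NT, with overlapping rats at both times. At 8 weeks Stab2, Lyve1, Plvap, Cd34 and Vwf had a higher mean in NT liver on this scale and Clec1b, Oit3 and Pecam1 a lower one, all with overlapping rats, with Lyve1 at 140% ± 16.9 in NOD08 and 170% ± 12.1 in DEN08 NT and Pecam1 at 64.4% ± 4.15 and 58.9% ± 8.00. At 20 weeks Oit3 had a higher mean, at 46.3% ± 10.7 in NOD20 and 54.9% ± 4.53 in DEN20 NT, and Clec1b a lower one, at 10.1% ± 1.48 and 8.83% ± 1.13, both with overlap. In nodules Pecam1 was lower without overlap at both times, at 42.3% ± 14.9 in DEN14 and 44.7% ± 11.3 in DEN20, as was Oit3 at 14 weeks (49.3% ± 3.36), and the other genes overlapped the untreated rats. The direction in NT liver at 14 weeks thus depended on the reference for 6 of the 8 genes, Lyve1, Oit3, Clec1b, Plvap, Vwf and Pecam1: each had a higher mean in DEN14 NT against the whole list and a lower one against Cdh5 and Tie1, while Stab2 and Cd34 had a higher mean against both.

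**Figure D5:**
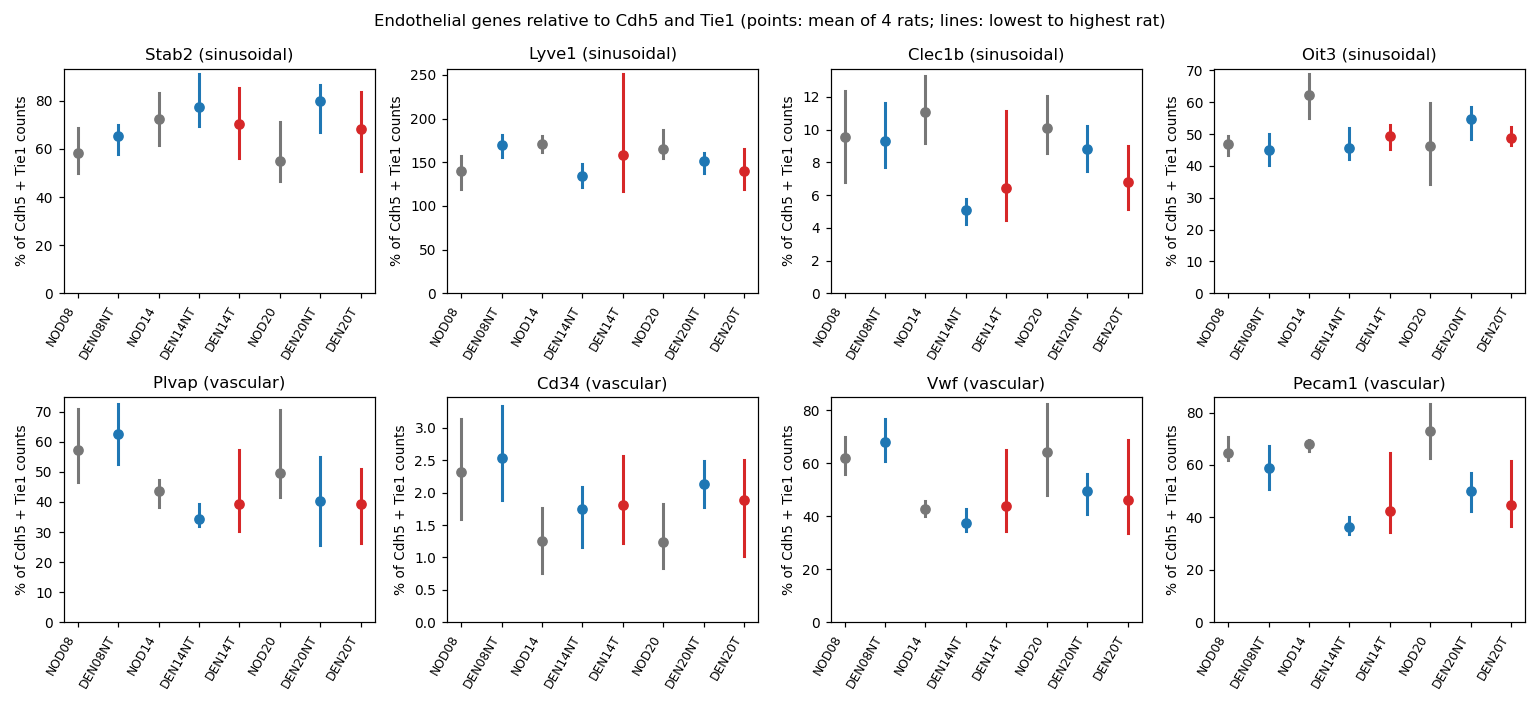
Counts of the 8 genes as a percent of the summed counts of Cdh5 and Tie1 in the same library, on axes that start at 0, with points for the mean of 4 rats and lines from the lowest to the highest rat (grey NOD, blue NT, red nodules). The group means of Stab2 lie between 55.1% and 79.9%, and Pecam1 falls from 68.1% in NOD14 to 36.3% in DEN14 NT.

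Other genes described in sinusoidal endothelium were called higher or were not called. Rspo3 was lower in DEN14 nodules (-0.46 ± 0.15, edgeR adjusted p = 0.0287), short of the fold limit. Of 16 listed, 13 were tested, and 5, 9 and 7 were called higher in NT liver at 8, 14 and 20 weeks and 7 and 7 in nodules, with 0 lower in all 5 comparisons, where 16.5%, 22.8%, 14.3%, 23.9% and 23.6% of all genes were called higher. In DEN20 nodules the largest rises were those of Flt4 (VEGFR3, 1.51 ± 0.29, edgeR adjusted p = 0.0021), Wnt9b (an angiocrine ligand, 1.27 ± 0.27, adjusted p = 0.0032) and Tfec (a transcription factor, 1.14 ± 0.19, adjusted p = 0.000995). Of 20 genes of other capillary and larger vessel endothelium, calls of a higher level in NT liver numbered 7 of 14 tested, 11 of 16 and 12 of 15 over the 3 times, and in nodules 11 of 16 and 12 of 15. Aplnr, Apln, Edn1, Selp and Esm1 did not pass the filter between NOD20 and NOD14, so that those tested at 14 and 20 weeks passed through DEN tissue, and without them the counts were 7 of 11 at 14 weeks and 8 of 11 at 20 weeks, in NT liver and in nodules alike. At 8 weeks Apln and Selp did not pass it between NOD14 and NOD08, and without them 6 of 12 were called higher. Esm1, a tip cell gene, was the gene of this list called lower at 8 weeks (fell by 1.44 on the log2 scale, SE 0.40, edgeR adjusted p = 0.0178), and none was called lower in the other comparisons. Aplnr, the apelin receptor of sprouting endothelium, rose from 0.0753 ± 0.0659 CPM in NOD20 to 2.45 ± 0.79 CPM in DEN20 nodules (edgeR, adjusted p = 9.76e-05), and Esm1 from 0.262 ± 0.180 to 3.16 ± 1.43 CPM (3.58 ± 0.49, adjusted p = 0.000358). The fold changes of both rest on few read pairs in untreated liver. Esm1 was also called higher in DEN20 NT (2.96 ± 0.54, edgeR adjusted p = 0.00393), but not at 14 weeks, where it was at 0.63 ± 0.38 in NT liver (adjusted p = 0.182) and 0.80 ± 0.41 in nodules (adjusted p = 0.133). Mcam, the adhesion molecule CD146, rose by 2.14 ± 0.22 (edgeR, adjusted p = 8.11e-05).

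Of 16 regulators of sinusoidal identity and of shear and BMP signals, 15 were tested at 8 weeks and 16 at the other times, and 3, 4 and 6 were called higher in NT liver and 3 and 5 in nodules. Apart from the 6 at 20 weeks in NT liver, these counts lay near the shares of all genes called higher, 16.5%, 22.8%, 14.3%, 23.9% and 23.6% in the same order, while 1 was called lower at 8 weeks and 2 in DEN20 nodules. The Notch ligand Dll4 (1.29 ± 0.29, edgeR adjusted p = 0.00401), the endothelial nitric oxide synthase Nos3 (1.19 ± 0.25, adjusted p = 0.00331) and the homeobox gene Meis2 (0.89 ± 0.20, adjusted p = 0.00469) rose in DEN20 nodules. Bmp10, a ligand made by stellate cells, fell by 0.65 on the log2 scale (SE 0.24, edgeR adjusted p = 0.0436), and Nr2f2, a venous transcription factor, fell by 0.63 (SE 0.11, adjusted p = 0.00106). Of 12 basement membrane genes 5 of 7 tested were called higher in NT liver at each time and 6 of 8 and 5 of 7 in nodules, with 1 lower in DEN14 nodules. The sixth call there was Col15a1, which passed the filter in none of the comparisons between untreated groups and so entered through its level in the nodules, and without it 5 of 7 were called. Lama5 (2.26 ± 0.16, edgeR adjusted p = 1.42e-05), Lama4 (1.66 ± 0.19, adjusted p = 0.000122) and Col4a1 (1.51 ± 0.14, adjusted p = 4.18e-05), which encode chains of laminin and of collagen IV, rose most in DEN20 nodules.

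Several of the 8 genes are also made by other cells of the liver, whose markers are given here. Their part in the members' levels was not tested. Of 10 platelet genes 7 had a row and 2 or fewer passed the filter, and none was called in the 5 comparisons by edgeR. Their summed level ran from 4.52 to 7.45 CPM over the rats of NOD20 and from 4.37 to 8.10 CPM over those of DEN20 nodules, most of it Itgb3, with Gp1bb at 0 in all groups. Pf4 was at 0.231 to 0.737 CPM by group mean and Ppbp at 0 to 0.0214 CPM, beside Clec1b at 1.82 to 3.40 CPM and Vwf at 7.70 to 24.7 CPM. Of 12 macrophage genes 10 were tested, and 11 in DEN14 nodules, and 2, 2 and 4 were called higher in NT liver and 5 and 4 in nodules, and 0 lower. Over all genes 16.5%, 22.8% and 14.3% were called higher in NT liver at 8, 14 and 20 weeks, and 23.9% and 23.6% in nodules. The counts of 2 at 8 and 14 weeks lay near these shares. The call of Trem2 in DEN14 nodules rests on its level there, since it passed the filter in no other comparison with untreated liver. The summed level of the macrophage genes ran from 392 to 682 CPM over the rats of NOD20 and from 612 to 780 CPM over those of DEN20 nodules. Gpnmb (1.91 ± 0.16, edgeR adjusted p = 3.15e-05), Cd68 (0.60 ± 0.13, adjusted p = 0.00389), C1qa (0.55 ± 0.12, adjusted p = 0.00423) and Adgre1 (0.51 ± 0.15, adjusted p = 0.0151) rose in DEN20 nodules. The other 6 tested, Cd163, Clec4f, Vsig4, Marco, Csf1r and C1qb, were not called there, at -0.43 to 0.45, nor in DEN20 NT, at 0.07 to 0.57. Beside Lyve1, the 6 lymphatic genes, of which Lyve1 and Flt4 are also in other lists, gave 3 calls higher in each DEN14 and DEN20 comparison with untreated liver, with a sum of 77.9 to 101 CPM over the rats of NOD20 and 99.2 to 116 CPM over those of DEN20 nodules. The chemokine Ccl21 rose in DEN20 nodules from 5.26 ± 1.51 to 21.7 ± 13.2 CPM (2.06 ± 0.41, edgeR adjusted p = 0.0023), whereas Prox1, which hepatocytes also express, fell by 1.5 (SE 0.18, adjusted p = 0.000193).

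Beside Cd34, the 12 stellate cell and fibroblast genes gave 7, 6 and 4 calls higher of 10 tested in NT liver and 5 and 5 in nodules, with 1 lower at 14 weeks in NT liver. Over all genes 16.5%, 22.8% and 14.3% were called higher in NT liver at 8, 14 and 20 weeks. In nodules 23.9% and 23.6% were called higher and 15.2% lower at either time. Col1a1 (2.33 ± 0.29, edgeR adjusted p = 0.000218), Dcn (1.41 ± 0.20, adjusted p = 0.000385) and Acta2 (1.14 ± 0.25, adjusted p = 0.00397) rose in DEN20 nodules. The summed level of the stellate cell and fibroblast genes was 228 to 289 CPM over the rats of NOD20 and 342 to 403 CPM over those of DEN20 nodules. Cholangiocyte genes gave 4 calls higher of 5 tested in each DEN14 and DEN20 comparison with untreated liver, led in DEN20 nodules by the keratin Krt19 (5.21 ± 0.46, edgeR adjusted p = 4.21e-05), Sox9 (4.26 ± 0.36, adjusted p = 3.26e-05) and Cldn4, a tight junction gene at 0.213 ± 0.0850 CPM in NOD20 and 1.95 ± 0.600 CPM in DEN20 nodules. Cldn4 passed the filter in no comparison between untreated groups and so entered through DEN tissue, and without it the counts were 3 of 4. The 8 hepatocyte genes, which mark the tissue as liver in every library, summed to 247450 to 286320 CPM over the rats of NOD20 and to 122770 to 188380 CPM over those of DEN20 nodules, and 6 were called lower there and 1 higher. Ass1 fell by 1.47 (SE 0.19, edgeR adjusted p = 0.000278), Cps1 by 1.21 (SE 0.19, adjusted p = 0.000728) and Hnf4a by 1.14 (SE 0.13, adjusted p = 0.000116), while Apoa1 rose by 1.31 ± 0.16 (adjusted p = 0.000172). Their group mean was 258100 to 262430 CPM in untreated liver and 145910 to 232350 CPM in DEN groups, and the part of this difference in the endothelial levels was not tested.

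The pattern across the 40 libraries was described by Pearson's r of log2 CPM. Stab2 and Oit3 had an r of 0.95, the highest among the 8 genes, and Stab2 and Clec1b 0.55. Among 11652 other genes those most like Stab2 were Bmp2 (r = 0.95), Akap12 (0.94), Rasgrp3 (0.94), Gatm (0.94) and Myct1 (0.92). Those most like Plvap were Capg (r = 0.95), Rac2 (0.94), Spi1 (0.94), Fcgr3a (0.93) and Tifab (0.93). With the other members Plvap had a lower r, at most 0.85 (Vwf). The libraries share treatment, time and hepatocyte content, and the nodules share rats, so these values describe likeness over this set of samples only.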

How the data were processed

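RNA was sequenced from poly(A)-selected stranded libraries of rat liver tissue. The authors aligned the reads to rn6 with STAR 2.7.1a and counted pairs in exons with HTSeq by strand, without pairs that map to several places. They deposited 1 table of raw counts per library, and the count rows that name no gene were left out of totals (pairs outside exons 21.5% to 34.5%, pairs at several places 7.96% to 16.3% per library). The 10 genes and all marker lists were chosen with earlier results of these data known. Named list genes are, per list, up to 3 called genes with the largest rise and fall in DEN20 nodules at a mean of at least 1 CPM. A result for 1 gene of these lists is not reported here. Genes like Stab2 and Plvap are the 5 with the highest r over 40 libraries (prior count 2).

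Counts were tested with edgeR 4.0.16 in R 4.3.3 (filterByExpr, TMM, robust quasi-likelihood fit, the 2 groups compared, or 4 for an interaction), without a block. The same test was also run on simulated counts. Same-numbered NT liver and nodules come from the same rat, and their deviations from group means correlated at 0.38 to 0.55 across genes, so the rat block is given beside the results. Alternatives were DESeq2 1.42.0, RLE scaling, no filter, all 8 groups in the fit, a stricter call rule (log2 fold change of at least 1, adjusted p of at most 0.01), single nodules, no F-numbered rats and each rat left out.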

Additional observations from a re-analysis of the deposited data

Results flagged for a closer look

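In 64 sets of 4 rats (8 genes in 8 groups), 3 held a rat that stood apart from the others by Dixon's ratio of the gap to the range at its 95% critical value. Chance gives such a gap in about 1 of 20 sets. Stab2 in NT liver of DEN14 was at 46.0 CPM in rat H23, with the next rat at 35.0 CPM. Clec1b in the nodules of DEN14 was at 4.37 CPM in rat F06, with the next at 2.54 CPM. Vwf in NT liver of DEN14 was at 21.4 CPM in rat F06, with the next at 17.3 CPM. F06 is the only F-numbered rat of DEN14, and its number differs in letter from that of all untreated rats.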

How the results depend on the processing

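Over all alternatives, 907 values of the 8 genes kept their direction and their side of the threshold, 66 lost and 10 gained a call, and 12 changed sign. The stricter call rule left 0 of the 8 genes at 8 weeks in NT liver, 1 (Cd34) at 20 weeks in NT liver and 3 in DEN20 nodules. Without F-numbered rats 5 genes were called in DEN08 NT, without Cd34 and Pecam1, and 5 in DEN20 NT. Between untreated livers of 8 and 14 weeks, DESeq2 called 2 genes, and edgeR called 1 without the filter and 1 with all 8 groups in the fit. Leaving out 1 rat gave 5 to 7 calls at 8 weeks, 6 to 7 at 14 weeks and 3 (without H16) to 8 at 20 weeks in NT liver, 6 to 7 in DEN14 and 6 to 8 in DEN20 nodules, and 0 to 2 (without H07) between NOD14 and NOD08.

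All changes of sign were in uncalled differences of nodules from NT liver. With nodule 1 alone at 14 weeks Oit3 was at -0.021, Plvap at -0.047 and Pecam1 at -0.0042, and with nodule 2 alone Cd34 was at -0.037. At 20 weeks Cd34 was at -0.36 with nodule 1 alone and Pecam1 at -0.023 with nodule 2 alone. Leaving out 1 rat, Cd34 ran from -0.18 to 0.34 at 14 weeks, and at 20 weeks Stab2 ran from -0.17 to 0.15, Lyve1 from -0.081 to 0.17, Oit3 from -0.12 to 0.18 and Pecam1 from -0.073 to 0.062. The rat as a block left 0 of the 8 genes called at both times, as without it, with Stab2 at -0.20 and 0.013, and moved the count of all genes from 0 to 1693 at 20 weeks, where leaving out H25 moved it to 445. The causes were not tested.

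CPM without TMM moved 15 of 64 group means of the 8 genes by more than 1 SD. Cd34 at 3 to 9 read pairs in untreated liver of 14 and 20 weeks limits its fold changes. With 4 rats a group, a nodule difference that missed the threshold does not show that nodules and NT liver were alike.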
